A study of Mus musculus with 28 samples.

Results

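Cadherins and the factors of epithelial-mesenchymal transition (EMT) were followed through clonal wild-type cells in 10 genes of the 45706 listed. The genes were chosen by symbol, and each symbol matched 1 Ensembl identifier. They are the epithelial genes Cdh1, Cdh16 and Epcam, the mesenchymal genes Cdh2 and Vim, and the transcription factors Snai1, Snai2, Zeb1, Zeb2 and Twist1. The cells were mIMCD-3, an epithelial line of mouse kidney (inner medullary collecting duct) from an animal that carried SV40 early-region genes, so all groups share this transgene. RNA was sequenced in 28 libraries, 4 from each of 7 groups. Polyclonal WT cells were the uncloned line, WT5 is a monoclonal line grown from a single sorted polyclonal cell, and subclones 1 to 5 were each grown from a single sorted WT5 cell. Every monoclonal line is therefore 1 clone, none of the cells was treated, and all were harvested after they had reached confluency. The study asked how far wild-type cells of one line differ before any genome editing.

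In an epithelium, E-cadherin (Cdh1) joins neighbouring cells through calcium-dependent contacts and binds the catenins inside the cell. During EMT, cells lower E-cadherin and gain N-cadherin (Cdh2) and the intermediate filament vimentin (Vim). The zinc-finger proteins Snai1, Snai2, Zeb1 and Zeb2 bind E-box sequences and repress Cdh1, and the basic helix-loop-helix protein Twist1 also binds E-boxes. The kidney is unusual in that its tubules carry several cadherins side by side, among them the kidney-specific Cdh16 of the collecting duct.

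The letters CACCTG, or CAGGTG on the other strand, are the E-box core that Snail and Zeb proteins recognise. RefSeq promoters on GRCm38.p6 were searched for 5 of the 10 genes, and not for Cdh1, Cdh16, Cdh2, Snai2 and Zeb1. Those of 4 genes, chosen with their values known, are printed over the 250 bases before the start of transcription. They are on the strand of the gene, with CACCTG and CAGGTG in capitals. Epcam, with 2 such cores, had the smallest z-score difference between WT5 and polyclonal WT cells of the genes tested. Snai1, with 1 core, was 4.55-fold higher in WT5, and Vim and Twist1, with none, were also higher. Zeb2, also with none, was 4.27-fold higher, which is less than Snai1. Cdh2 and Zeb1, whose promoters were not searched, had larger z-score differences than Twist1. Whether cores and levels are linked was not tested.
Epcam, chr17:87635729-87635978, plus strand: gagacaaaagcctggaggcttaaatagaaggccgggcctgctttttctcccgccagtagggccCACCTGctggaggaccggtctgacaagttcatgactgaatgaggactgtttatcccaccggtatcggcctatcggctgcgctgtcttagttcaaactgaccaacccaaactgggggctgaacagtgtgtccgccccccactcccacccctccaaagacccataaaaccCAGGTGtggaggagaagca
Snai1, chr2:167537945-167538194, plus strand: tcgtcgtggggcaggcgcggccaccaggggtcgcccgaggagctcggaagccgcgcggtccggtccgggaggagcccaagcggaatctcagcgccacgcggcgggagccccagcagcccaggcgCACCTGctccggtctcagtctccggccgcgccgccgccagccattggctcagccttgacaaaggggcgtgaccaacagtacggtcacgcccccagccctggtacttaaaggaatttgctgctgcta
Vim, chr2:13574061-13574310, plus strand: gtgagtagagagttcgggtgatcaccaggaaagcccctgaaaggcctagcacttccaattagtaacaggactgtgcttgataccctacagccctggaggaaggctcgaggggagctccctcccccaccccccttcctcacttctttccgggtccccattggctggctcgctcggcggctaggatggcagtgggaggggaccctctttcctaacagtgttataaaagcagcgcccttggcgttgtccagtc
Twist1, chr12:33957421-33957670, plus strand: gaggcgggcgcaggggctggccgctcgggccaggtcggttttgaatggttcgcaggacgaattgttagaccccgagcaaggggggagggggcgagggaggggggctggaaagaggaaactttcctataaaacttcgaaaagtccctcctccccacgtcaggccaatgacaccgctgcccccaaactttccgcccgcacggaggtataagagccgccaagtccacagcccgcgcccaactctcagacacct
The Epcam promoter held the core at 2 places, which begin 187 and 19 bases before the start of transcription, and Snai1 held it at 1 place, 126 bases before the start. The windows of Vim and Twist1 held none, and neither did any of the 4 annotated starts of Zeb2. Over all 32851 promoters of the same length, 17.2% held the core at least 1 time and 2.06% at least 2 times. A match is a description of the letters and not of a bound site.

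The gene values are TPM, a transcript level scaled for transcript length and for the total of the library, so levels of different genes can be compared within a library. TPM keeps no read depth, and the number of reads behind a value is unknown. Values are given to 2 decimals, and the lowest above 0 was 0.01. A library listed between 16270 and 19272 genes above 0, with most in the polyclonal libraries. Replicate libraries correlated with r between 0.986 and 0.993 over genes, which are not independent of one another, and no pair of libraries was identical. The study describes the libraries of a line both as biological and as technical replicates, so the p-values measure the spread between these libraries only. Reads were single-end and 50 bp long for polyclonal WT cells, and paired-end and 150 bp long for WT5, which was sequenced at another time, so line and sequencing cannot be told apart between them. The epithelial keratin Krt8 stood at a mean of 359.9 TPM in polyclonal WT cells and 1005 in WT5, whereas Aqp2, the water channel of principal cells, was listed at 0 in both. Among 10 fibroblast markers the summed level was between 0.64 and 4.52 TPM in all libraries. Csf1r made up most of the leukocyte sum (12.62 to 55.63 TPM) and Egfl7 most of the endothelial sum (10.52 to 52.09 TPM). Other markers were at 0 or low. Adgre1, Lyz2 and Cd3e of leukocytes and Kdr, Tie1 and Emcn of endothelium were listed at 0 in WT5 and polyclonal WT cells. Cd68 had means of 2.28 TPM in polyclonal WT cells and 2.78 in WT5. Ptprc had 0.03 TPM in both, and Pecam1 had 0.22 and 0.0175 TPM. All 4 endothelial markers that could be tested (Flt1, Eng, Plvap and Egfl7), 1 of 2 leukocyte markers (Csf1r) and 1 of 2 fibroblast markers (Des) were higher in WT5 than in polyclonal WT cells by the test described with the members, and Acta2 was lower. Of 11 collecting duct markers tested, 5 were higher and 4 lower. The part of other cell types in the results was not tested. In bulk RNA, fewer cells that express a gene and less RNA per cell cannot be told apart.

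The 10 genes spanned a wide range of expression in these cells. Epcam, a homophilic adhesion molecule of epithelia, had the highest level of the 10 in every group, and only 1.24% of the 18484 genes with a mean above 0 in WT5 were at or above it. Cdh1 and Cdh16 followed in WT5 with 9.88% and 11% of genes at or above them. Cdh2 and Vim were intermediate in WT5, with 37.0% and 40.4% at or above them. The 4 detected transcription factors were low, with 58.2% to 67.8% of genes at or above them in WT5. Snai2, the Snail protein known as Slug, was listed at 0 in all 28 libraries and could not be tested.

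**Figure D1:**
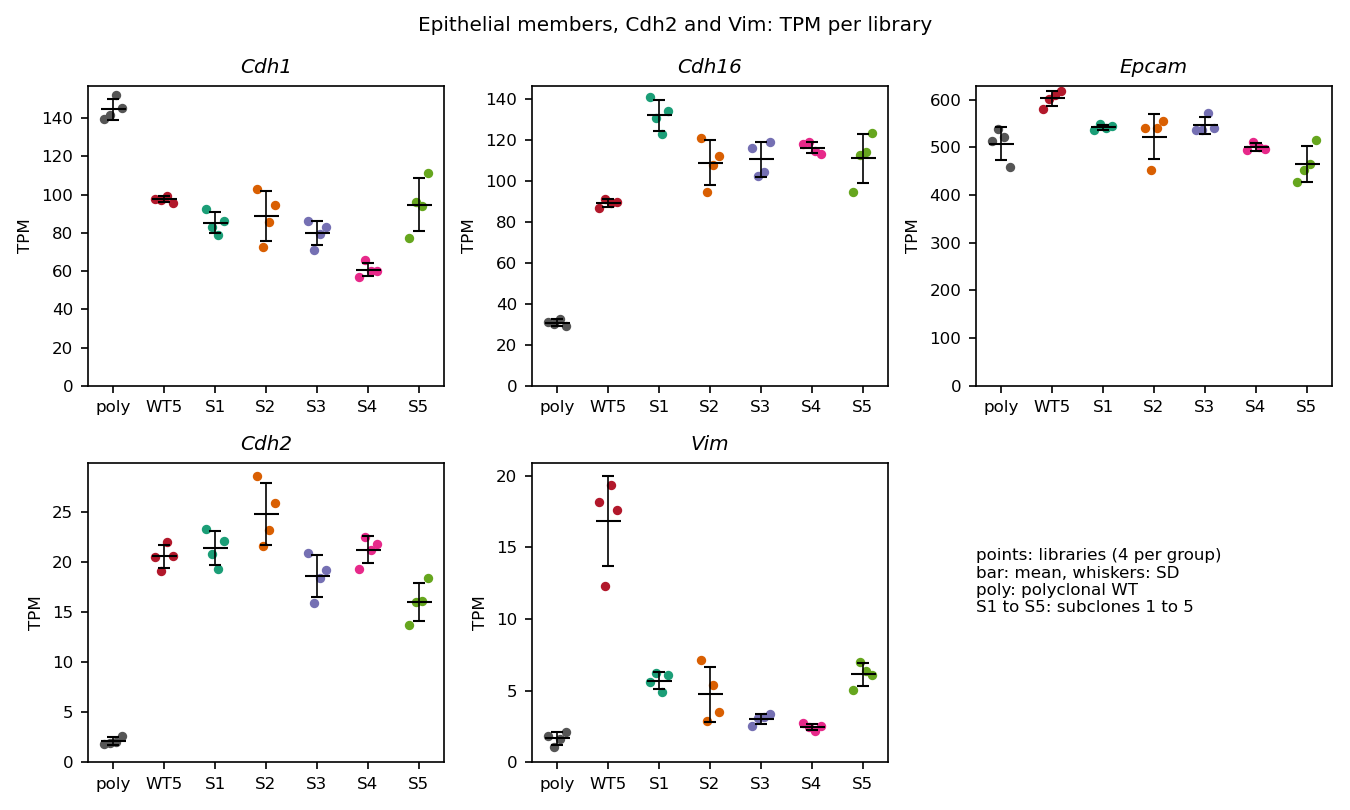
TPM of Cdh1, Cdh16, Epcam, Cdh2 and Vim in each of the 28 libraries (points), with the mean (bar) and SD (whiskers) of 4 libraries per group and a linear axis from 0. Cdh1 is highest in polyclonal WT cells and lowest in subclone 4, Cdh16 and Cdh2 are lowest in polyclonal WT cells, and Vim is highest in WT5.

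In WT5, Cdh1 was lower and Cdh16, Cdh2, Vim, Snai1, Zeb1, Zeb2 and Twist1 were higher than in polyclonal WT cells, and Epcam did not pass the test. For the test, log2(TPM) values were turned into z-scores within each library. The z-scores were taken over the 13723 genes above 0 in all 8 libraries. A gene passed at an adjusted p below 0.01 (limma, Benjamini-Hochberg adjustment over all genes). By this rule 8 of the 9 members tested passed, 7 of them higher and 1 lower. Of all genes, 65.5% passed, 34.5% higher and 30.9% lower, so passing is common in this comparison. The libraries of the 2 groups did not overlap for any of the 9 members, against 72.3% of all genes. A difference of 1 in z-score corresponds to 8.56-fold here. The study also required a z-score difference above 1. With limma, this stricter rule was met by 1 of the 9 members (Vim) and 5.43% of all genes. With a log2 difference above 1 in place of that, 7 members passed, and 25.5% of all genes did by the adjusted p without z-scores. Without z-scores, the median gene was 0.24 higher in WT5 on the log2 scale, and this shift is taken out of the z-scores.

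Cdh1 stood at 139.7, 141.7, 152.1 and 145.2 TPM in polyclonal WT cells and at 97.6, 97.3, 99.6 and 95.8 TPM in WT5. All WT5 libraries lay below all polyclonal ones, and the mean fell to 0.674 of the polyclonal level. The z-score difference was -0.246 ± 0.0114 (SE, n = 4 libraries per group, adjusted p = 7.51e-07). Cdh16, a cadherin of the collecting duct with a short cytoplasmic tail, moved the other way. Its polyclonal libraries stood at 31.2, 30.4, 32.8 and 29.0 TPM and its WT5 libraries at 86.9, 91.1, 89.2 and 89.8 TPM, a 2.89-fold higher mean (z-score difference 0.429 ± 0.0116, adjusted p = 5.33e-08). Cdh1 and Cdh16 lie on the same chromosome of GRCm38, at 106603351 to 106670246 (plus strand) and 104601911 to 104624396 (minus strand) of chromosome 8. Cdh1 was 4.69 times as abundant as Cdh16 in polyclonal WT cells (mean of the within-library log2 ratios, as a fold) and 1.09 times in WT5.

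Epcam had 457.8 to 538.6 TPM in polyclonal WT cells and 581.2 to 618.9 TPM in WT5. The ranges did not overlap, and the WT5 mean was 1.19-fold higher, but the z-score difference was only 0.0250 ± 0.0143 (adjusted p = 0.149). On log2(TPM) without z-scores the Epcam difference was 0.25 ± 0.06 (SE), about as large as the shift of the median gene, and passed the test (adjusted p = 0.00489). Over 10 other settings its adjusted p lay between 0.000171 and 0.454, and 4 of these settings called it.

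For Cdh2, the N-cadherin gene, the polyclonal libraries had 1.80, 1.90, 2.08 and 2.67 TPM and the WT5 libraries 20.5, 19.1, 22.0 and 20.6 TPM. Every WT5 library was above 19 TPM and every polyclonal library below 3 TPM. The mean was 9.73-fold higher in WT5 (z-score difference 0.990 ± 0.0387, adjusted p = 3.21e-07). Within a library, Cdh1 exceeded Cdh2 by 69.3-fold in polyclonal WT cells (54.4 to 77.6 over 4 libraries) and by 4.75-fold in WT5 (4.53 to 5.08). This ratio needs no scaling between libraries, but line and sequencing cannot be told apart in it either. E-cadherin transcripts remained the more abundant of the pair in every library of both groups.

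Vim stood at 1.86, 1.07, 1.65 and 2.10 TPM in polyclonal WT cells and at 18.2, 12.3, 19.3 and 17.6 TPM in WT5. The libraries did not overlap, and the mean was 10.1-fold higher in WT5 (z-score difference 1.007 ± 0.0726, adjusted p = 7.68e-06). Epcam exceeded Vim within a library by 313-fold in polyclonal WT cells and 36.3-fold in WT5.

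The transcription factors rose from levels near 0. Zeb2 had 0.94, 0.44, 0.67 and 1.13 TPM in polyclonal WT cells and 4.55, 3.34, 2.90 and 2.78 TPM in WT5, a 4.27-fold higher mean (z-score difference 0.613 ± 0.0966, adjusted p = 0.000632). Twist1 had 0.12, 0.10, 0.27 and 0.28 TPM against 1.3, 1.3, 1.34 and 1.16 TPM (0.841 ± 0.108, adjusted p = 0.000197). Zeb1 had 0.17, 0.04, 0.04 and 0.05 TPM against 0.82, 0.49, 0.51 and 0.68 TPM (0.984 ± 0.153, adjusted p = 0.000575). All 3 genes were higher in each WT5 library than in each polyclonal one. Zeb2 overlaps an antisense gene, Zeb2os, at 0 to 0.48 TPM, and whether the counting used the strand is not given in the sources used here.

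Snai1 was the least certain of the factors. Its polyclonal libraries had 0.09, 0.13, 0.08 and 0.37 TPM and its WT5 libraries 0.88, 0.59, 0.86 and 0.72 TPM (z-score difference 0.707 ± 0.151, adjusted p = 0.00332). The call was lost when polyclonal replicate 1, WT5 replicate 1 or WT5 replicate 3 was left out (adjusted p 0.0105 to 0.0110). It was also lost with an unequal-variance test (adjusted p = 0.0269, the highest of 9 settings, the lowest being 8.22e-05).

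**Figure D2:**
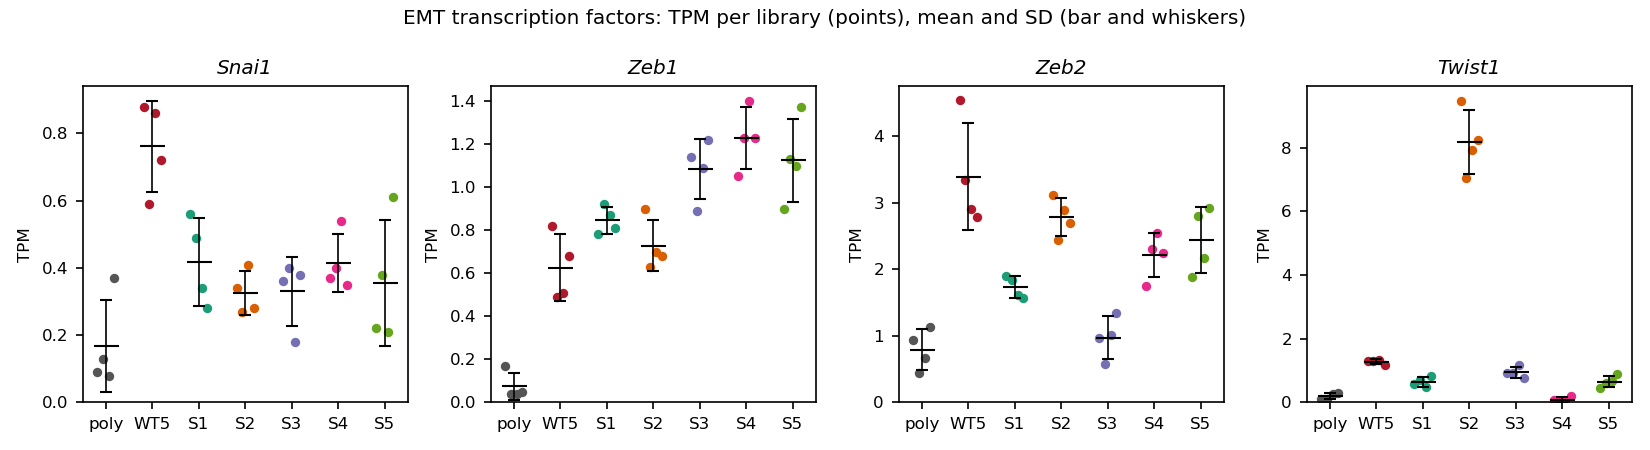
TPM of Snai1, Zeb1, Zeb2 and Twist1 in each of the 28 libraries (points), with the mean (bar) and SD (whiskers) of 4 libraries per group and linear axes from 0 that differ between genes. Snai1 and Zeb2 have their highest means in WT5, Zeb1 in subclone 4 and Twist1 in subclone 2, and the polyclonal libraries are low for all 4 genes.

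Relative to their parent WT5, the subclones had less Vim and more Cdh16, and the transcription factors went different ways. Each subclone was compared with the same 4 WT5 libraries, so the 5 comparisons are not independent. WT5 and the subclones also stand in separate tables, and a difference that all subclones share cannot be told apart from a difference between tables. Nor can it be told apart from the weeks of further growth that the study gave the subclones before their RNA was isolated. Of 40 tests (8 members in 5 subclones), 17 passed, 6 higher and 11 lower. Over all 13860 genes, the share that passed was 26.3%, 26%, 19.5%, 37.3% and 21.9% in subclones 1 to 5. The share that was higher was 12.7%, 13.4%, 8.65%, 18.2% and 10.2%, and the share that was lower was 13.6%, 12.6%, 10.9%, 19.2% and 11.7%. By limma, 0 of the 40 tests also reached a z-score difference above 1, as 0.152%, 0.144%, 0.173%, 0.202% and 0.173% of all genes did, while 17 passed the adjusted p alone and 10 did so with an unequal-variance test. Of the tests past this adjusted p, 8 of the 40 also had a log2 difference above 1, all lower. The share of all genes with such a difference was 3.17%, 2.69%, 3.61%, 5.14% and 3.45%, by the limma adjusted p without z-scores. By that adjusted p Snai1 in subclone 3, 1 of the 8, did not pass (0.0102).

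Vim was lower than in WT5 in all 5 subclones, as 3.79% of all genes were. Subclone 1 had 5.60, 6.26, 4.88 and 6.07 TPM, subclone 2 had 7.12, 2.91, 5.43 and 3.53 TPM, and subclone 3 had 2.55, 3.09, 3.14 and 3.39 TPM. Subclone 4 had 2.72, 2.44, 2.17 and 2.56 TPM, and subclone 5 had 5.08, 7.0, 6.41 and 6.08 TPM. The highest subclone library (7.12 TPM) was below the lowest of WT5 (12.3 TPM), and the lowest (2.17 TPM) was just above the highest of polyclonal WT cells (2.10 TPM). The z-score difference from WT5 ran from -0.456 ± 0.0477 in subclone 5 to -0.923 ± 0.0501 in subclone 4, with adjusted p from 1.17e-05 to 0.00215. With an unequal-variance test, subclones 2 and 5 no longer passed (adjusted p = 0.0161 and 0.0126, the highest over 11 settings in either subclone, from 3.95e-07 and 1.78e-05).

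Cdh16 was higher than in WT5 in all 5 subclones, as 3.26% of all genes were. Subclone 1 had 122.6 to 140.7 TPM and subclone 2 had 94.8 to 121.1 TPM, and the ranges were 102.4 to 118.9 TPM for subclone 3, 113.3 to 119.1 TPM for subclone 4 and 94.5 to 123.2 TPM for subclone 5. Every library was above the highest of WT5 (91.1 TPM). The mean was 1.22-fold to 1.48-fold that of WT5 (adjusted p 1.75e-05 to 0.000733). The call was lost in 3, 2 and 2 of 11 other settings in subclones 2, 3 and 5. On log2(TPM) without z-scores it was lost in all 3 (adjusted p = 0.0202, 0.0112 and 0.0261), and with an unequal-variance test in subclones 2 and 5 (adjusted p = 0.0126 and 0.0106). Over the 11 settings the adjusted p lay between 7.21e-07 and 0.0202, 4.12e-08 and 0.0117, and 5.27e-08 and 0.0261 in these subclones. Within a library, Cdh16 was more abundant than Cdh1 in all 20 subclone libraries, with a Cdh1 to Cdh16 ratio from 0.485 to 0.905, and less abundant in each of the 8 libraries of the other lines.

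Cdh1 passed the test in subclone 4. There it stood at 57.2, 65.6, 60.3 and 60.0 TPM, all below the lowest WT5 library, and the mean was 0.623 of that of WT5 (z-score difference -0.188 ± 0.0141, adjusted p = 4.47e-05). In the other subclones the mean was 80.0 to 94.8 TPM and the adjusted p 0.0527 to 0.764. Cdh2 had means of 16.0 to 24.8 TPM in the subclones, against 20.6 in WT5, and its adjusted p was 0.0109 to 0.335, but in subclone 2 it passed in 6 of 11 other settings (adjusted p 0.00486 to 0.0548). Epcam had means of 465.2 to 546.2 TPM, against 602.5 in WT5, with adjusted p from 0.0273 to 0.690. On log2(TPM) without z-scores Epcam passed as lower in subclones 1, 4 and 5 (adjusted p = 0.00814, 0.000524 and 0.00576), and it passed in 1, 3 and 3 of 11 other settings there. Over 11 settings its adjusted p lay between 0.00814 and 0.642, 0.000524 and 0.434, and 0.00227 and 0.0625 in these subclones.

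Of the transcription factors, Snai1 was below WT5 in subclones 2, 3 and 4, with means of 0.325, 0.330 and 0.415 TPM against 0.763 in WT5. The adjusted p was 0.00148, 0.00761 and 0.00270. In subclone 3 the call was lost without any 1 of the 4 WT5 libraries or without subclone 3 replicate 1 or 4 (adjusted p 0.0122 to 0.0244), and in 4 of 10 other settings, among them an unequal-variance test (adjusted p = 0.0416, the lowest of the 10 settings being 0.00402). In subclone 4 it was lost with all 28 libraries in one fit (adjusted p = 0.0256, the lowest of 10 settings being 0.00192). Zeb2 was below WT5 in subclones 1 and 3, at z-score differences of -0.322 ± 0.0569 and -0.633 ± 0.0720 (adjusted p = 0.00366 and 0.000663). The call in subclone 1 was lost without WT5 replicate 2 or without subclone 1 replicate 2, 3 or 4 (adjusted p 0.0104 to 0.0114), and with an unequal-variance test (adjusted p = 0.0224, the lowest of 11 settings being 0.000735). Zeb1 was above WT5 in subclone 4 (1.23 against 0.625 TPM, z-score difference 0.287 ± 0.0631, adjusted p = 0.00673). That call was lost without WT5 replicate 2, 3 or 4 and without each of the 4 subclone 4 libraries (adjusted p 0.0114 to 0.0200). It was also lost with an unequal-variance test and with all 28 libraries in one fit (adjusted p = 0.0342 and 0.0101, over 10 settings 0.00164 to 0.0342). In subclones 3 and 5 the z-score differences of Zeb1 were 0.235 and 0.275, close to that in subclone 4, with adjusted p = 0.0173 and 0.0112, and Zeb1 passed there in 2 and 4 of 10 other settings (0.00693 to 0.0931 and 0.00430 to 0.0548).

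**Figure D3:**
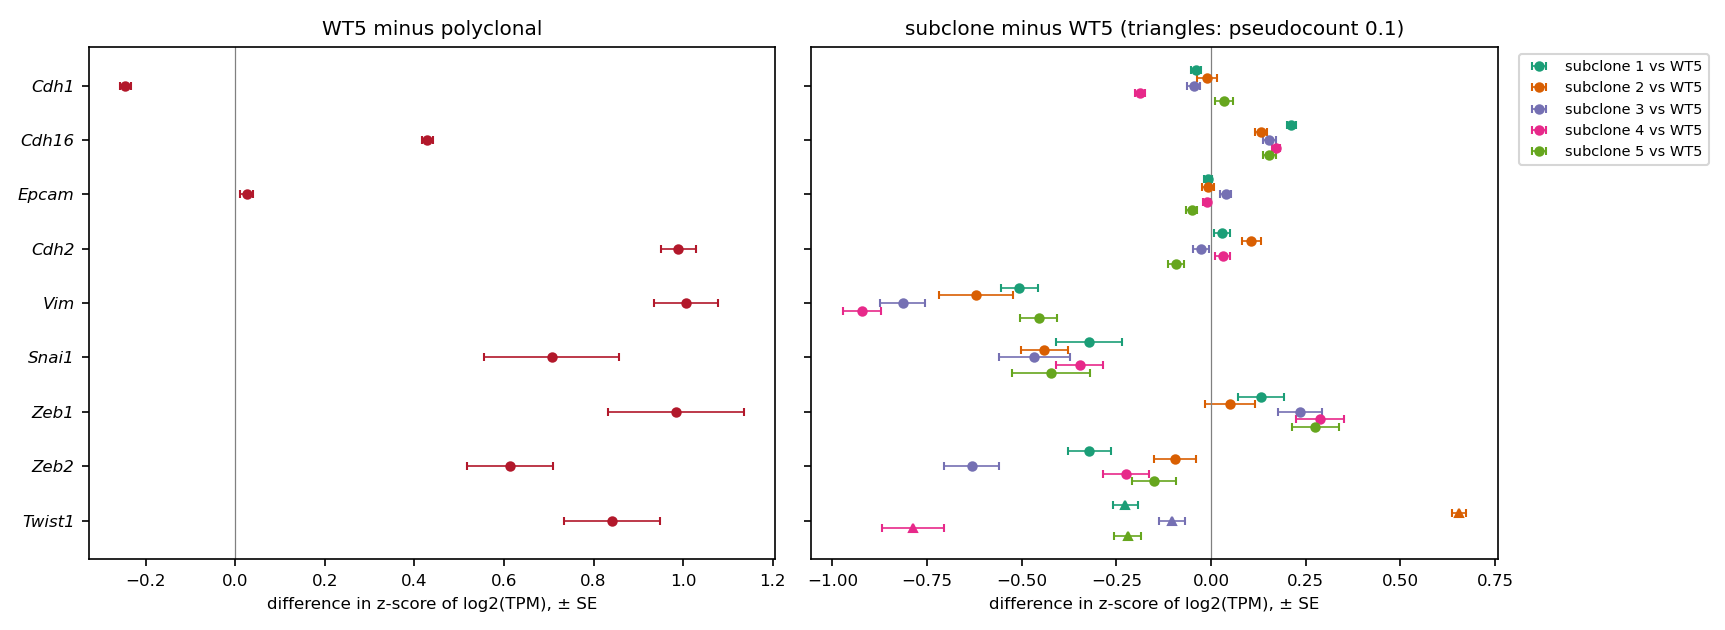
Difference in z-score of log2(TPM) for each member, WT5 minus polyclonal WT cells (left) and each subclone minus WT5 (right), with SE (whiskers, 4 libraries per group). Circles use no pseudocount, and the triangles of Twist1 in the subclones use a pseudocount of 0.1 on a wider gene set. Vim is left of 0 and Cdh16 right of 0 in all 5 subclones, and Twist1 lies on both sides.

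Twist1 showed the widest spread between subclones of all members. Subclone 2 had 9.46, 7.03, 7.94 and 8.23 TPM, above every other library in the series. Subclone 4 had 0.08, 0, 0.03 and 0.20 TPM, within or below the range of polyclonal WT cells. Subclone 1 (0.57, 0.71, 0.47 and 0.82 TPM), subclone 3 (0.91, 0.93, 1.19 and 0.76 TPM) and subclone 5 (0.46, 0.62, 0.66 and 0.88 TPM) lay in between and overlapped one another. The mean of subclone 2 was 6.40-fold that of WT5 and 12.7-fold that of subclone 1. The Vim level of subclone 2 (2.91 to 7.12 TPM) overlapped those of subclones 1, 3 and 5.

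The 0 in subclone 4 replicate 2 kept Twist1 out of the test that needs a level above 0 in all libraries. With a pseudocount of 0.1 and genes above 0 in any library, the 5 subclones differed (F test, adjusted p = 9.41e-10, where 14.5% of 21640 genes passed), and the means spanned 1.45 in z-score. On this scale 7 of the 10 pairs of subclones passed, all of them with subclone 2 or 4, while of all genes 2.32%, 7.24%, 5.15% and 2.31% passed in subclones 2, 4, 5 and 3 against subclone 1. The share was 2.39%, 8.21% and 5.21% in subclones 3, 4 and 5 against subclone 2, 7.34% and 4.86% in subclones 4 and 5 against subclone 3, and 11.7% in subclone 5 against subclone 4. Against WT5, Twist1 was higher in subclone 2 (z-score difference 0.654 ± 0.0197, adjusted p = 8.26e-06, 15% of genes passed). It was lower in subclone 4 (-0.787 ± 0.0808, adjusted p = 0.000383, 32% of genes passed), in subclone 1 (adjusted p = 0.00320, 14.6%) and in subclone 5 (adjusted p = 0.00459, 11.2%). Subclone 3 did not pass (adjusted p = 0.0831, 9.42% of genes passed). A test without pseudocount over genes above 0 in the 8 libraries of a comparison, added after the data had been seen, called 3 of the 4 subclones it could test. They were subclone 2 (0.831 ± 0.0249, adjusted p = 7.31e-06, 24.8% of genes passed), subclone 1 (-0.330 ± 0.0439, adjusted p = 0.00119, 25.2%) and subclone 5 (-0.313 ± 0.0440, adjusted p = 0.00171, 20.8%), but not subclone 3 (adjusted p = 0.0717, 18.4%).

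The 5 subclones were then compared with one another, within 1 table and without WT5. Of the 8 members tested without a pseudocount, 6 differed among the subclones (moderated F test by limma over 14031 genes, 24.6% of which passed). They were Cdh1, Epcam, Cdh2, Vim, Zeb1 and Zeb2. Cdh16 (adjusted p = 0.0150) and Snai1 (adjusted p = 0.705) did not pass. None of the 8 spanned more than 1 in z-score, and 2 of them, Vim and Zeb2, spanned more than 1 on the log2 scale. Against subclone 1, 3.68%, 3.44%, 12.6% and 9.01% of all genes passed in subclones 2 to 5. Against subclone 2, the share was 3.82%, 14.5% and 8.91% in subclones 3 to 5, against subclone 3 it was 12.2% and 8.67% in subclones 4 and 5, and between subclones 5 and 4 it was 20.2%.

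Zeb2 differed most among these 6 members (span of the means 0.526 in z-score, adjusted p = 1.58e-06). Subclone 3 had 0.97, 0.57, 1.01 and 1.35 TPM, below every library of the other subclones. Subclone 1 had 1.90, 1.84, 1.62 and 1.57 TPM, subclone 2 had 3.11, 2.44, 2.89 and 2.7 TPM, subclone 4 had 1.75, 2.31, 2.54 and 2.25 TPM, and subclone 5 had 1.89, 2.80, 2.17 and 2.92 TPM. All 4 pairs with subclone 3 passed, and so did subclone 2 against subclone 1 (z-score difference 0.221 ± 0.0494, adjusted p = 0.00971). Vim spanned 0.457 in z-score (adjusted p = 8.98e-05), with 5 of 10 pairs passing, each of which had subclone 3 or 4 as the lower line. Zeb1 spanned 0.231 (adjusted p = 0.000133), with subclone 2 lowest and subclone 4 highest, but did not pass with an unequal-variance test or with all 28 libraries in one fit (adjusted p = 0.0231 and 0.123, the lowest of 10 settings being 1.29e-05). On the wider gene set with a pseudocount of 0.1, which was used for Twist1, 4 pairs of Zeb2 and 4 of Vim passed, without subclone 2 against 1 for Zeb2 (adjusted p = 0.0289) and subclone 3 against 1 for Vim (adjusted p = 0.0122).

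Among the adhesion genes, Cdh1 spanned 0.216 in z-score (adjusted p = 3.28e-05), and the 4 pairs that passed were those with subclone 4. Cdh2 spanned 0.194 (adjusted p = 4.50e-05), from a mean of 16.0 TPM in subclone 5 to 24.8 in subclone 2. Its level in subclone 5 was below that of subclones 1, 2 and 4, and its level in subclone 3 below that of subclone 2. Epcam spanned only 0.0872 (adjusted p = 0.00115), and 1 pair, subclone 5 against subclone 3, passed. This pair did not pass on the wider gene set (adjusted p = 0.0190). Epcam no longer passed the F test without z-scores, after quantile normalization or on the wider gene set (adjusted p = 0.0428, 0.0553 and 0.0730, the lowest of 10 settings being 0.000192). Cdh2 did not pass with an unequal-variance test (adjusted p = 0.0102, the lowest of 10 settings being 1.06e-05). Cdh16 passed in 1 pair, with subclone 2 below subclone 1.

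The order of the subclones was not shared by these genes. Twist1 was highest in subclone 2 and lowest in subclone 4, Zeb2 was highest in subclone 2 and lowest in subclone 3, and Zeb1 was highest in subclone 4 and lowest in subclone 2. Vim was highest in subclone 5, and Cdh2 was lowest there. Neighbouring subclones in such an order mostly overlapped: in Cdh2 and in Zeb1 every neighbour in the order of the 5 subclones overlapped the next, whereas in Cdh1 subclone 4 stood apart and in Zeb2 subclone 3 did.

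**Figure D4:**
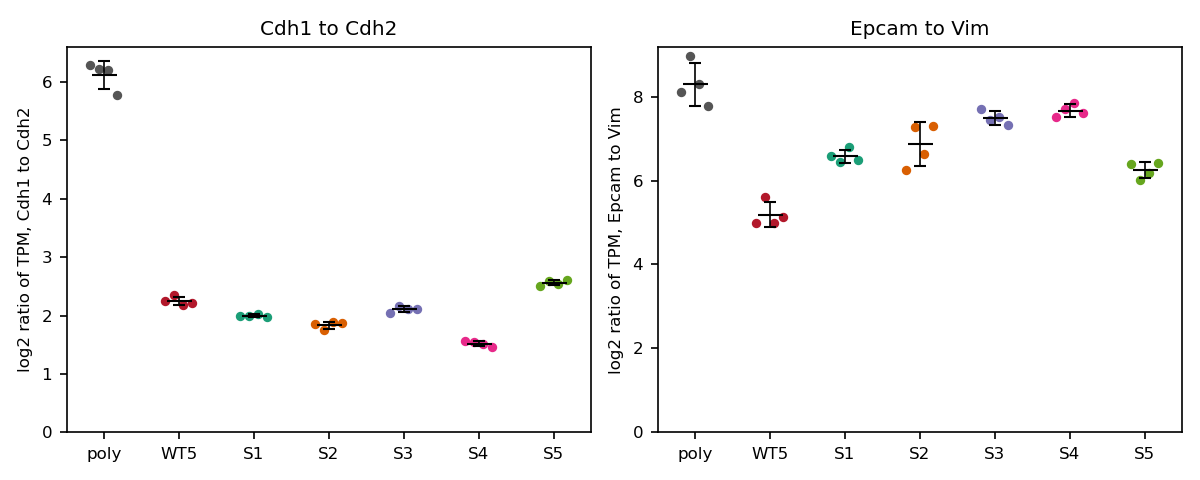
Log2 ratio of TPM within a library for Cdh1 to Cdh2 (left) and Epcam to Vim (right) in the 28 libraries (points), with the mean (bar) and SD (whiskers) of 4 libraries per group. Cdh1 exceeds Cdh2 by 69.3-fold in polyclonal WT cells, and by 2.87-fold to 5.90-fold in WT5 and the subclones, and Epcam exceeds Vim in every library.

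The Cdh1 to Cdh2 ratio was tight within lines and is given without a test. It was 3.99, 3.57, 4.31, 2.87 and 5.90 in subclones 1 to 5, against 4.75 in WT5. The ratio in subclone 5 was 5.66 to 6.07 and in subclone 4 it was 2.75 to 2.96, on either side of the WT5 libraries. The Epcam to Vim ratio was 95.5, 117, 180, 203 and 76.1 in subclones 1 to 5. All of these lay above WT5 (36.3) and below the mean of polyclonal WT cells (313).

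The genes around these 10 were read from lists of related genes, in which some genes stand more than once. In the comparison of WT5 with polyclonal WT cells, 12 of 14 other cadherins that could be tested passed, 8 higher and 4 lower (median z-score difference 0.308, against 0.00991 over all genes). Most of the 57 listed were not above 0 in all libraries. Cdh6, a kidney cadherin of the developing tubule, rose from 3.6 to 4.66 TPM in polyclonal libraries to 314.4 to 340.2 TPM in WT5 (z-score difference 1.97 ± 0.0218, adjusted p = 8.89e-10), above Cdh1 and Cdh16 in WT5. The protocadherin Pcdh1 rose from a mean of 0.06 to 6.88 TPM (adjusted p = 6.85e-06). The 4 lower cadherins were Cdh3, Fat1, Clstn1 and Pcdh19. Among proteins that bind cadherins at junctions, 13 of 20 passed, 9 higher and 4 lower (median 0.0354). The desmosomal plakophilin Pkp1 rose from 0.04 ± 0.02 to 5.76 ± 0.33 TPM (SD, adjusted p = 6.39e-07), and the 4 lower ones were Ctnnb1 (β-catenin), Pkp3, Ctnnal1 and Lima1.

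Of the epithelial programme, 35 of 45 genes passed, 20 higher and 15 lower (median 0.0395), so it did not move one way. Klf4, Cldn3 and Cldn4, chosen after their values were seen, were among those higher. Klf4 rose from a mean of 0.16 to 3.82 TPM (z-score difference 1.41). Cldn3 rose from 18.6 to 246.7 TPM (1.14) and Cldn4 from 164.7 to 1089 TPM (0.825). The largest decreases were in Rab25, a GTPase of apical recycling, from 206.6 ± 11.6 to 17.4 ± 1.1 TPM (z-score difference -1.22, adjusted p = 2.06e-09), in Mal2, a protein of transcytosis, from 493.1 to 59.3 TPM (-1.05, adjusted p = 5.17e-09), and in the transcription factor Foxa1, from 31.4 to 6.29 TPM (-0.820, adjusted p = 1.64e-07). Of the mesenchymal programme, 15 of 22 passed, 13 higher and 2 lower (Acta2 and Cald1), with a median of 0.288. Of the other EMT transcription factors, 11 of 15 passed, 10 higher and 1 lower (Tcf4), with a median of 0.171. The 3 largest of these, chosen after their values were seen, were Foxq1 (0.13 to 8.30 TPM), Twist2 (0.70 to 30.1 TPM) and Sox9 (0.39 to 9.6 TPM). In WT5, Twist2, the relative of Twist1, was therefore at a higher level than any of the 4 detected factors among the 10 genes. These shares stand beside the 65.5% of all genes that passed.

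**Figure D5:**
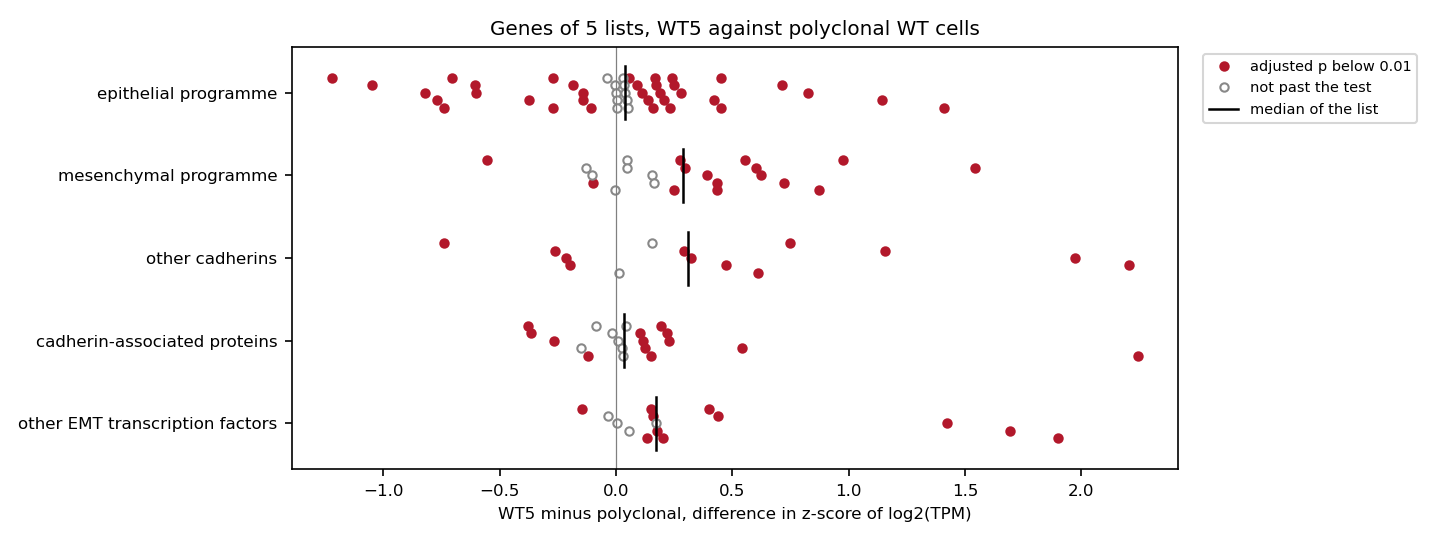
Difference in z-score of log2(TPM), WT5 minus polyclonal WT cells, for the tested genes of 5 lists (1 point per gene, filled where the adjusted p was below 0.01), with the median of each list (vertical bar). The medians of the mesenchymal programme (0.288) and of the other cadherins (0.308) lie right of 0, and the epithelial programme has genes on both sides.

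In the subclones the mesenchymal programme was lower than in WT5 for every gene that passed but 1. The counts of this and the other lists stand beside the 26.3%, 26%, 19.5%, 37.3% and 21.9% of all genes that passed in subclones 1 to 5, and genes named as changed in all 5 subclones beside the 3.79% of all genes that were lower and the 3.26% that were higher in all 5. Of 23 genes tested, 10, 8, 12, 13 and 9 were lower in subclones 1 to 5, and 1 gene, Cd44, was higher in subclone 5. The medians were -0.129, -0.203, -0.299, -0.176 and -0.163, against medians over all genes within 0.00307 of 0. Fn1 (fibronectin), Itga5, Itgb3 and Ccn2 were among the genes lower in all 5 subclones, and were chosen for this after their values were seen. Fn1 had a mean of 88.9 TPM in polyclonal WT cells, 234.6 in WT5 and 83.1 to 142.0 in the subclones. Of the 15 other EMT transcription factors, 10, 8, 9, 10 and 7 passed in subclones 1 to 5, and Twist2, Foxq1 and Id1 were lower in all 5 subclones. Twist2 had means of 19.8 to 23.2 TPM in the subclones.

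The junction genes also moved between WT5 and its subclones. Of 21 proteins that bind cadherins, 13, 14, 10, 13 and 7 passed in subclones 1 to 5. Ctnnb1 and Pkp4 were higher in all 5, and Pkp1, Pkp2, Nectin2 and Ajuba were lower in all 5. Of the other cadherins 6, 6, 5, 7 and 4 of 14 passed, 5, 4, 4, 6 and 2 of them lower. The desmosomal cadherins Dsc2 and Dsg2 were lower in subclones 1 to 4, with Dsc2 higher in subclone 5, and Cdh3 was lower in subclones 1, 3, 4 and 5, while Cdh17 was higher in all 5 subclones. These cadherins were named after their values were seen. Of the epithelial programme 14, 15, 17, 24 and 20 of 45 passed, and of those passing 2, 3, 3, 7 and 1 were higher.

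Within the lists, the gene with the smallest F test p among the subclones was Pkp1 for the cadherin-binding proteins (0.63 ± 0.03 TPM in subclone 1 to 3.61 ± 0.63 in subclone 5, adjusted p = 1.29e-11). For the other cadherins it was Pcdh1, highest in subclone 2 with 10.6 ± 1.0 TPM (adjusted p = 1.75e-09). For the epithelial programme it was Mal2, from 55.8 ± 1.2 TPM in subclone 1 to 130.6 ± 3.4 in subclone 4 (adjusted p = 2.31e-10). For the mesenchymal programme it was Fstl1, lowest in subclone 2 with 2.05 ± 0.44 TPM (adjusted p = 8.93e-10). For the other EMT transcription factors it was Id1, from 46.0 ± 3.0 TPM in subclone 3 to 84.8 ± 3.3 in subclone 5 (adjusted p = 1.63e-08).

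Over the 20 subclone libraries, the genes that varied most like each member were sought by Pearson correlation of log2(TPM) among 11988 genes. The correlation compares variation over libraries and not the level itself. It is a description over libraries that share tables and lines and carries no test. Cdh1 was closest to Glb1 (r = 0.958) and Slc7a6 (r = 0.951), and Cdh2 to Dusp3 (r = 0.944) and Efnb2 (r = 0.928). Cdh16 was closest to App (r = 0.930) and Maged1 (r = 0.929), and Epcam to Cyp4v3 (r = 0.932) and Tbc1d15 (r = 0.888). Vim was closest to Slc9a3r2 (r = 0.887) and Lrig1 (r = 0.886). Zeb2 was closest to Tmem181a (r = 0.936) and Inhbb (r = 0.930), and Zeb1 to Ermp1 (r = 0.891) and Ndrg4 (r = 0.846). Snai1 had no gene above r = 0.712 (Zfp961). Twist1, with a pseudocount of 0.1, was closest to Gxylt2 (r = 0.949) and Trpm6 (r = 0.882), a pair chosen after the values of Twist1 were seen. Gxylt2 had means of 30.7 TPM in subclone 2, 8.50 in subclone 4 and 14.7 to 16.8 in the other subclones.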

How the data were processed

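RNA of mIMCD-3 cells was sequenced in 28 libraries, 4 per group, grouped by the labels. The deposited values are TPM per gene, for which reads were mapped by STAR 2.7.3a (GRCm38, Ensembl annotation of release 81) and genes quantified by RSEM 1.3.1. TPM keeps no depth, so no counting error is given. One table holds the 8 libraries of polyclonal WT cells and WT5 and another the 20 of the subclones, and the tables were joined by gene identifier. Within each library, log2(TPM) values were turned into z-scores over the genes above 0 in all libraries of a comparison. Groups were compared with limma 3.58.1 in R 4.3.3 (two-sided, Benjamini-Hochberg adjustment over all genes, adjusted p below 0.01), in place of the unequal-variance test of the study, since each group has 4 libraries. The study also required a z-score difference above 1, which is given here as a stricter rule beside the adjusted p. The procedure was also run on simulated data with independent noise and few changed genes. In WT5 against polyclonal WT cells most genes passed, so that run does not check the calls made here.

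The members and lists were chosen with earlier results of these data known. Named beyond the 10 members were the 3 list genes that rose most and the 3 that fell most in WT5 among those past the test whose libraries do not overlap, 1 gene per list with the smallest F test p among the subclones, and the 2 genes most correlated with each member. Others are said to be chosen after their values were seen, or complete a count of at most 5 genes or a count over all 5 subclones. Lists covered other cadherins, cadherin-associated proteins, epithelial and mesenchymal programmes, other EMT transcription factors and markers of the collecting duct, fibroblasts, endothelium and leukocytes. Alternatives were other tests, pseudocounts of 0.1 and 1, filters, scalings, a replicate block, all 28 libraries in one fit, and each library left out in turn. Replicate numbers were not taken to pair libraries, since deviations of libraries with the same number correlated between -0.0457 and 0.0637. Figures were drawn with matplotlib 3.10.9 in Python 3.11.15.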

Additional observations from a re-analysis of the deposited data

Results flagged for a closer look

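Single libraries stood apart from the other 3 of their group by a test for outliers in 3 of 63 groups, where chance gives about 1 in 20. These were Epcam in subclone 2 replicate 2 (453.2 TPM, below 539.4 to 555.8 in the other 3 libraries), Epcam in subclone 3 replicate 3 (572.5 TPM, above 535.5 to 541.4), and Zeb1 in polyclonal replicate 1 (0.17 TPM, above 0.04 to 0.05).

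Members whose level differed between the subclones by the F test were noted as well. The means of the subclones spanned 0.216 in z-score for Cdh1, 0.0872 for Epcam, 0.194 for Cdh2, 0.457 for Vim, 0.231 for Zeb1 and 0.526 for Zeb2. With a pseudocount of 0.1, they spanned 1.45 for Twist1.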

How the results depend on the processing

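No member that passed changed its direction under any alternative, and 5 differences that did not pass did, 1 of them in 2 settings. Epcam in WT5 against polyclonal WT cells became -0.0124 on the wider gene set with a pseudocount of 0.1. Epcam in subclone 3 became -0.142 without z-scores and -0.0199 after quantile normalization, and Cdh1 in subclone 5 became -0.0527 without z-scores. In subclone 2 with each library left out, Cdh1 ran from -0.0282 to 0.0123 and Epcam from -0.0166 to 0.00276, and both were above 0 without subclone 2 replicate 2. Between WT5 and polyclonal WT cells 8 of 9 members passed, and 7 to 8 did with each library left out. Between the subclones and WT5 17 of 40 tests passed, and 14 to 19 did with each library left out. Among the subclones 6 of 8 passed with every library left out in turn. With an unequal-variance test 10 of the 40 subclone tests passed. Requiring a z-score difference above 1 left 1 member in WT5 against polyclonal WT cells, 0 of the 40 tests and 0 among the subclones, where 17 and 6 pass the adjusted p alone. Requiring a log2 difference above 1 left 8 of the 40 tests and 2 members among the subclones. With a replicate block, 7, 12 and 6 passed in the 3 comparisons, and the calls lost were Snai1 in WT5 against polyclonal WT cells and, against WT5, Cdh16 in subclones 2 and 3, Snai1 and Zeb2 in subclone 3 and Zeb1 in subclone 4 (adjusted p 0.0111 to 0.0405 in these 5). Replicate numbers do not pair the libraries, and their correlation under the same number was between -0.0457 and 0.0637. With all 28 libraries in one fit, Zeb1 no longer passed among the subclones (adjusted p = 0.123, the highest of 10 settings, the lowest being 1.29e-05). Cdh2 did not pass there with the unequal-variance test (adjusted p = 0.0102, from 1.06e-05 over 10 settings). The cause of these changes was not tested. Depth is unknown, and levels under 1 TPM, as for Snai1, Zeb1 and Twist1, carry 2 decimals.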
